A study of Homo sapiens with 6 samples.

Results

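The genes described here are SNAI1, SNAI2, TWIST1, TWIST2, ZEB1 and ZEB2, the main transcription factors of the epithelial-mesenchymal transition (EMT), and VIM, which encodes the filament protein vimentin. They were chosen by symbol from their known roles, with earlier results of these data known, and are 7 of the 60669 genes in the deposited count files. All 7 passed the filter on low counts, as did 17575 genes in all. RNA was sequenced from 293T cells, a line derived from human embryonic kidney that carries adenovirus and SV40 genes, in 2 libraries each of wild type control, MLL2 knockout cells edited with CRISPR/Cas9, and cells with PRMT1 knocked down by an shRNA. The labels name no further treatment for any group. The series calls the libraries of a group biological replicates. No source used here says whether the knockout cells were 1 clone, so traits of a clone cannot be told apart from the knockout. Per the file headers, the alignment names of control and knockout libraries hold the letters shNT and those of the knockdown shPR, which no source used here spells out. PRMT1 is an arginine methyltransferase, and MLL2 a histone H3 lysine 4 methyltransferase, a name that can mean KMT2B or KMT2D.

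In EMT, epithelial cells give up their junctions and become motile. SNAI and ZEB proteins are zinc finger repressors that bind E-boxes in epithelial genes such as CDH1, and TWIST proteins are basic helix-loop-helix factors that act beside them. ZEB1 and ZEB2 are held down in epithelial cells by the miR-200 family, whose genes the ZEB proteins repress in turn. Vimentin replaces keratins as the main cytoplasmic filament of mesenchymal cells, and it is also abundant in many cultured lines. 293T cells are known to carry both keratins and neurofilaments, so they are not a model of a differentiated epithelium.

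The libraries summed to between 20061471 and 22351532 counts in genes. Levels are in CPM (counts relative to a library of 1e+06), scaled to the library total times its trimmed mean of M-values (TMM) factor. Changes are log2 values with their standard error (SE) from the quasi-likelihood test of edgeR, with p-values adjusted after Benjamini and Hochberg over the 17575 genes, and a gene was called at an adjusted p under 0.05. With n = 2 libraries a group, these p-values measure the spread between these libraries, pooled over the 3 groups. As a check of the labels, PRMT1 had 306 and 319 CPM in control, and the knockdown libraries had 38.2 and 34.9 CPM. The knockout libraries had 406 and 425 CPM. KMT2B and KMT2D were not called in the knockout (log2 changes 0.02 ± 0.25 and 0.19 ± 0.26), and counts over whole genes need not show an edited allele. The knockdown libraries differed more from each other than those of the other groups, with a chi-square per degree of freedom over genes of 12.9 against 5.58 in control and 4.45 in the knockout. Between them (replicate 2 minus replicate 1), the median log2 difference went from -0.22 for the shortest genes to 0.09 for the longest, and KMT2D was at 37.8 and 95.5 CPM. Of 11 markers of the 293 line, at most 1 was at 0 counts in a library. Levels varied: PAX8 had 4 counts in knockout replicate 1 and 0 elsewhere, PAX2 had 1 to 11, and SIX2 114 to 184. The summed level of the 11 was 622 to 639 CPM in control, 414 to 418 CPM after knockout and 318 to 329 CPM after knockdown, most of it from NEFL and CDH2. These 2 moved in opposite directions. NEFL went from 347 and 352 CPM in control to 56.6 and 53.3 CPM in the knockdown, and CDH2 from 122 and 111 CPM to 151 and 144 CPM. Sums for 9 fibroblast, 7 leukocyte and 6 endothelial markers were at most 18.6, 3.14 and 3.51 CPM, with CD3E and COL1A2 at 0 counts in all 6 libraries. In bulk RNA, fewer cells of a type and less RNA per cell cannot be told apart.

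In the knockout, 2 of the 7 genes were called, ZEB1 and ZEB2, both higher and by 1.28-fold and 1.32-fold. In the knockdown 4 were called: ZEB2 was 2.18-fold, VIM 1.46-fold and ZEB1 1.39-fold higher, and SNAI2 was 2.27-fold lower. Over all genes tested, 22.4% were called in the knockout, 10.3% as higher and 12.1% as lower. In the knockdown 47.4% were called, 22.2% as higher and 25.3% as lower, so 4 of 7 is near the share of all genes. The same 4 were called when either knockdown library was left out. With an offset for exon length, or for GC content and length together, 6 of the 7 were called in the knockdown, SNAI1 and TWIST1 in addition, beside 48.0% and 49.4% of all genes. Both comparisons use the same 2 control libraries.

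The ZEB transcripts are the known targets of the miR-200 family, so the mature miRNAs are shown with their seed (bases 2 to 8) in capitals, from RefSeq on GRCh38.p14. The genes lie in 2 clusters, on chromosomes 1 and 12, and the 5 miRNAs fall into 2 seed groups.
hsa-miR-200b-3p: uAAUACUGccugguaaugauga
hsa-miR-200c-3p: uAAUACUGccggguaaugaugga
hsa-miR-429: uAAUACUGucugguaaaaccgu
hsa-miR-200a-3p: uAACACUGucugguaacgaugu
hsa-miR-141-3p: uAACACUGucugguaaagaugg

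The first group pairs with CAGTATT and the second with CAGTGTT on the transcript strand. The 3′ UTR of the principal ZEB1 transcript (1938 nt, GENCODE 29) held 8 such matches, 5 and 3 of each. That of ZEB2 (5370 nt) held 9, 5 and 4 of each. SNAI2 held 1, and SNAI1, TWIST1, TWIST2 and VIM held 0. Of 18430 annotated 3′ UTRs, 26.8% held either match. Among UTRs within 1.5-fold of the same length, 38.6% of 4370 had a match for ZEB1's length and 72.7% of 1804 for ZEB2's, with a median of 0 and 1 matches. The 2 CAGTATT and the first CAGTGTT matches nearest the stop codon are printed for each gene on its own strand (GRCh38, match in capitals), because they show what sets these 2 members apart in sequence.
ZEB1 chr10:31527620-31527641 (+): tgttttatcttatCAGTATTat
ZEB1 chr10:31527714-31527735 (+): gctaaatccgcttCAGTATTtt
ZEB1 chr10:31528033-31528054 (+): aaatcatcagaatCAGTGTTtg
ZEB2 chr2:144389051-144389072 (-): cactaccatacatCAGTATTtt
ZEB2 chr2:144388988-144389009 (-): cactacaatgcatCAGTATTat
ZEB2 chr2:144389235-144389256 (-): caaaaattttgtaCAGTGTTaa

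A match is a description of sequence and not a measured site. The precursor genes MIR200A, MIR200B, MIR429, MIR200C, MIR141 and MIR205 had 0 counts in all 6 libraries, and so did the host gene MIR205HG. The host gene MIR200CHG had 0 and 2 counts in control, 3 and 0 in the knockout, and 1 and 0 in the knockdown. Total RNA libraries of this kind do not measure mature miRNAs. These counts cover only the annotated precursor and host genes, which were at 0 or at 1 to 3 counts at this depth. Whether the libraries capture the short precursors was not tested, so counts of 0 do not show that they were absent.

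ZEB2 (ENSG00000169554, hg38 chr2:144364364-144521057, minus strand) had 446 and 468 counts in the control libraries, or 22.3 and 23.0 CPM. The knockout libraries had 29.5 and 30.1 CPM, and the knockdown libraries 48.6 and 49.99 CPM. The 3 groups were in order without overlap, lowest in control and highest in the knockdown. The change was 0.40 ± 0.11 in the knockout (adjusted p = 0.0159), 1.12 ± 0.11 in the knockdown (adjusted p = 7.0e-08) and 0.73 ± 0.11 between knockdown and knockout (adjusted p = 2.1e-05). Transcripts of the knockdown libraries shifted with length: the median change rose from -0.45 for the shortest class of genes (222) to 0.16 for the longest (2852). ZEB2 has 24861 nt of exon, and 303 genes of like length had a median change of 0.36 in the knockdown and 0.04 in the knockout. With an offset for GC content and exon length, the ZEB2 change in the knockdown was 0.63 (adjusted p = 3.2e-05), that against the knockout 0.31 (adjusted p = 0.0208), and that in the knockout 0.32 (adjusted p = 0.0330).

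ZEB1 (ENSG00000148516, chr10:31318495-31529814, plus strand) had 841 and 709 counts in control, or 42.0 and 34.9 CPM. The knockout libraries were at 48.8 and 49.9 CPM and the knockdown libraries at 56.5 and 50.6 CPM. Every library of a depletion was above both control libraries, which differed more from each other than did those of the knockout. The change was 0.36 ± 0.11 in the knockout (adjusted p = 0.0245) and 0.48 ± 0.11 in the knockdown (adjusted p = 0.00134). Knockdown and knockout differed by 0.12 ± 0.11 (95% interval -0.11 to 0.35, adjusted p = 0.428). Leaving out control replicate 2, the lower one, ended both calls, at 0.23 in the knockout (adjusted p = 0.324) and 0.34 in the knockdown (adjusted p = 0.0626).

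The ZEB calls in the knockout rested on small changes. ZEB1 was no longer called without either knockout library (adjusted p = 0.0937 and 0.124). ZEB2 was no longer called without any 1 of the 4 control and knockout libraries (log2 changes of 0.37 to 0.42, adjusted p between 0.0841 and 0.120). All these values kept their direction.

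SNAI2, also called SLUG, lies on chromosome 8 (ENSG00000019549, 48917598 to 48921740, minus strand). It had 690 and 720 counts in control, or 34.4 and 35.4 CPM, and 36.7 and 36.4 CPM in the knockout. In the knockdown it had 313 and 356 counts, or 15.1 and 15.6 CPM. Both knockdown libraries were under the 4 others by a gap far wider than any spread within a group. SNAI2 fell by 1.18 ± 0.12 in the knockdown (adjusted p = 9.9e-08) and was at -1.25 ± 0.12 against the knockout (adjusted p = 7.6e-08). Its change in the knockout was 0.07 ± 0.12 (95% interval -0.18 to 0.31, adjusted p = 0.736). SNAI2 was the 1 member called lower in any comparison.

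SNAI1, or SNAIL, a short-lived protein and the founding repressor of CDH1 (ENSG00000124216, chr20:49982980-49988886, plus strand), was the weakest of the 7. It had 16 and 9 counts in control, 12 and 8 in the knockout, and 27 and 42 in the knockdown. These are 0.798 and 0.443 CPM, 0.555 and 0.392 CPM, and 1.31 and 1.84 CPM. Both knockdown libraries were above the 4 others, while control and knockout overlapped. The change in the knockdown was 1.34 ± 0.65 (95% interval -0.02 to 2.697, adjusted p = 0.0979), and in the knockout -0.38 ± 0.71 (-1.85 to 1.09, adjusted p = 0.751). Knockdown against knockout gave 1.72 ± 0.67 (adjusted p = 0.0448), a call lost when any of 5 of the 6 libraries was left out, each depletion library among them (1.45 to 1.98 over all 6), and in DESeq2 (adjusted p = 0.0866). With the GC and length offset the knockdown change was 1.71 and called (adjusted p = 0.0377).

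TWIST1, a basic helix-loop-helix factor of the neural crest and mesoderm (ENSG00000122691, chr7:19020991-19117636, minus strand), was at 7.59 and 9.45 CPM in control. Knockout libraries had 6.33 and 8.39 CPM, and knockdown libraries 10.2 and 10.3 CPM. The knockdown libraries were above the others, and the other groups overlapped. Its changes were -0.21 ± 0.21 in the knockout (adjusted p = 0.527), 0.26 ± 0.21 in the knockdown (adjusted p = 0.311) and 0.48 ± 0.21 between them (adjusted p = 0.0765). The GC and length offset gave 0.60 in the knockdown (adjusted p = 0.0166) and 0.75 against the knockout (adjusted p = 0.00416), both called. Genes of like exon length had a median of -0.20 in the knockdown.

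TWIST2, or DERMO1 (ENSG00000233608, chr2:238848032-238910534, plus strand), had 65 and 62 counts in control, 51 and 68 in the knockout, and 71 and 61 in the knockdown. Its levels were 3.24 and 3.05 CPM, 2.36 and 3.34 CPM, and 3.43 and 2.68 CPM. All 3 groups overlapped. The change was -0.15 ± 0.35 in the knockout (95% interval -0.87 to 0.57, adjusted p = 0.811) and -0.04 ± 0.34 in the knockdown (-0.76 to 0.67, adjusted p = 0.927), intervals that hold changes in either direction. With the GC and length offset the knockdown value was 0.29, not called.

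VIM, the type III intermediate filament gene (ENSG00000026025, chr10:17228241-17237593, plus strand), was by far the most abundant of the 7. It had 9825 and 10128 counts in control, or 490.3 and 498 CPM, and was at 507 and 512 CPM in the knockout. It was at 751 and 694 CPM in the knockdown, where both libraries were above the 4 others. VIM rose by 0.55 ± 0.08 in the knockdown (adjusted p = 8.6e-06) and was 0.50 ± 0.08 above the knockout (adjusted p = 3.2e-05). The change in the knockout was 0.04 ± 0.08 (95% interval -0.12 to 0.21, adjusted p = 0.752). With the GC and length offset the knockdown change was 0.53.

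**Figure D1:**
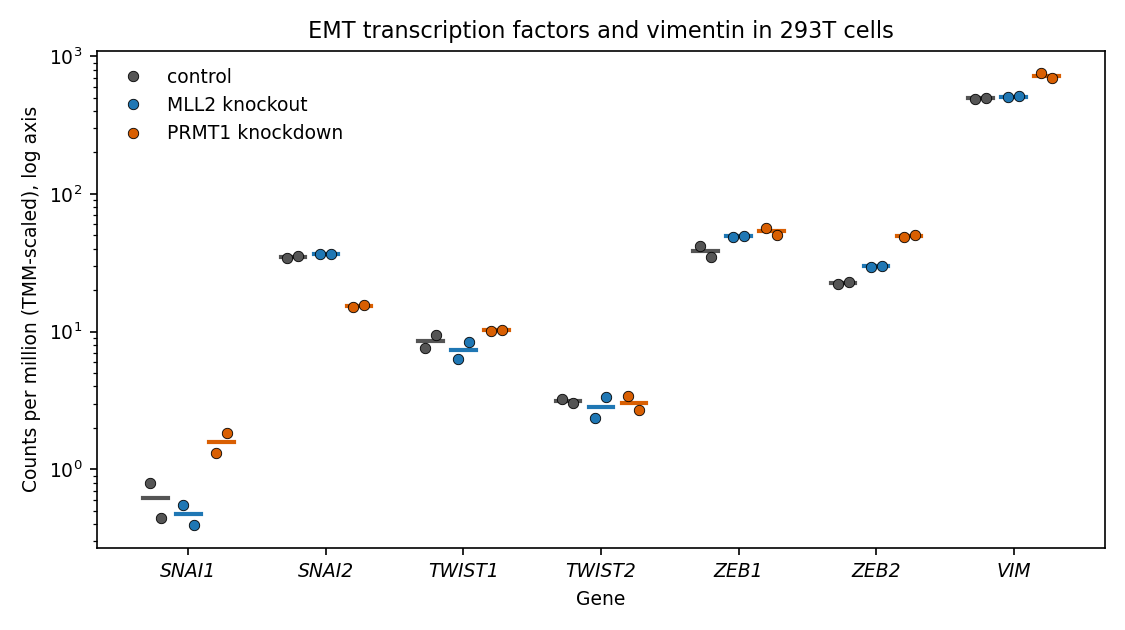
Level of each of the 7 genes in each of the 6 libraries, in TMM-scaled CPM on a log axis; points are libraries and bars group means (n = 2). SNAI2 is lower in both knockdown libraries, at 15.1 and 15.6 CPM, ZEB2 rises over the 3 groups, and VIM is at 751 and 694 CPM in the knockdown against 490.3 to 512 CPM in the others.

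To compare the genes with each other, levels were divided by exon length. In control VIM was at 94.7 and 96.3 CPM per kb of exon and SNAI2 at 10.5 and 10.8. ZEB1 followed at 4.03 to 4.85 CPM per kb and TWIST1 at 3.80 to 4.73, ranges that overlap. TWIST2 was at 1.63 to 1.74, ZEB2 at 0.895 to 0.926 and SNAI1 at 0.260 to 0.468 CPM per kb. These neighbours in the order did not overlap. The place of ZEB2 depends on the length used: per kb of its principal transcript it was at 2.33 to 2.41 CPM per kb, above TWIST2 at 2.17 to 2.31. The overlap of ZEB1 and TWIST1 depends on it too. By principal transcripts ZEB1 was at 6.43 to 7.74 CPM per kb and TWIST1 at 4.55 to 5.67, without overlap. In the knockdown ZEB1, at 5.85 to 6.53 CPM per kb of exon, was above SNAI2, at 4.61 to 4.76, the reverse of control.

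Between knockdown and knockout, the 2 depletions set against each other directly, 4 of the 7 genes were called: ZEB2, VIM and SNAI1 higher and SNAI2 lower in the knockdown. Of all genes, 40.7% were called, 19.4% as higher and 21.4% as lower. For SNAI2, ZEB2 and VIM this is also the test that the 2 depletions differ. ZEB1 was called in both depletions against control, and the interval of the difference between them held 0. In the knockdown, SNAI1, TWIST1, ZEB1, ZEB2 and VIM had both libraries above both control libraries, as had 35.0% of all genes. SNAI2 had both below, as had 38.5% of all genes. In the knockout, SNAI2, ZEB1, ZEB2 and VIM had both above (30.1% of all genes) and none had both below (32.5%).

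**Figure D2:**
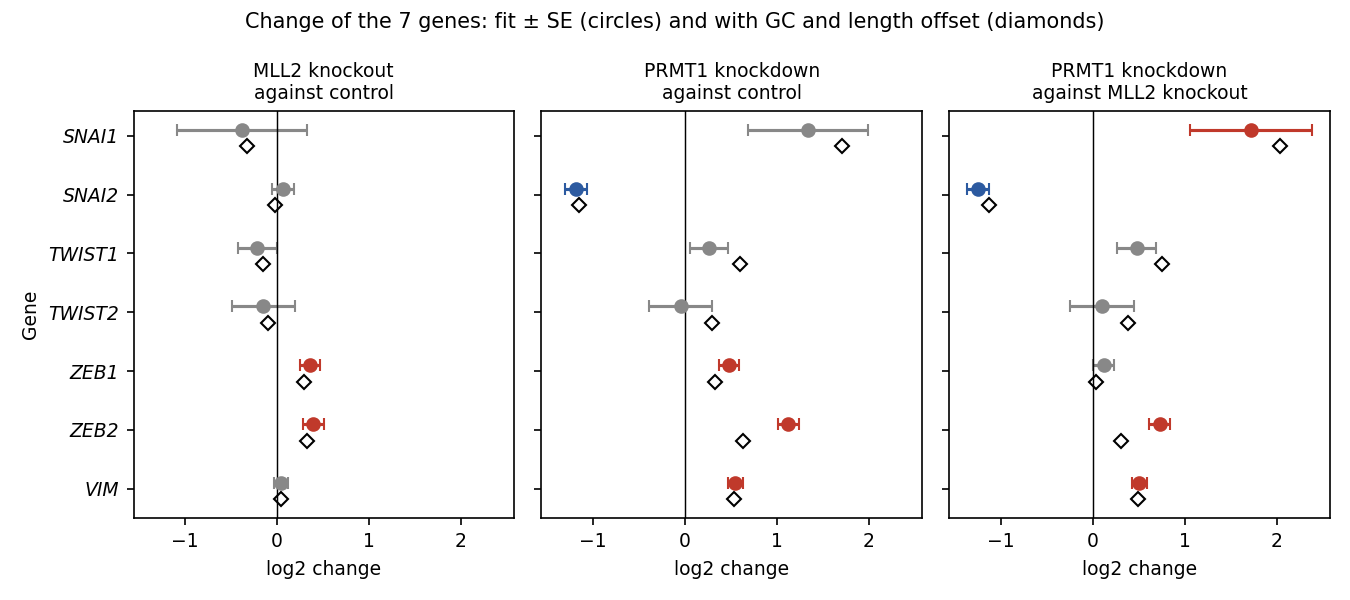
log2 change of the 7 genes in the 3 comparisons; circles with bars are the fit ± SE (red called higher, blue called lower, grey not called) and diamonds the value with a GC and exon length offset. SNAI2 is left of 0 and ZEB2 right of 0 in the knockdown in both, with ZEB2 at 1.12 and 0.63.

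Other transcription factors linked to EMT moved both ways. Of 18 listed, 14 were tested, and 3 were higher and 1 lower in the knockout (median 0.18) against 4 and 3 in the knockdown (median -0.22). Over all genes the medians were -0.01 and -0.04. Of these, 10.3% were higher and 12.1% lower in the knockout, and 22.2% and 25.3% in the knockdown. FOXC1, a forkhead factor, rose in both (0.33 ± 0.09 and 0.67 ± 0.09). The E-proteins TCF3 and TCF4, which pair with TWIST proteins, rose in the knockout (0.40 ± 0.12 and 0.35 ± 0.10), while their knockdown values were 0.04 and -0.12. In the knockdown MSX1, a homeobox factor of the neural crest, fell by 2.23 ± 0.13 and HMGA2, an architectural factor, fell by 1.22 ± 0.12, while SOX4 rose by 0.74 ± 0.10. SNAI3, the third SNAI gene, was at 9 to 20 counts per library and was not called. Of 14 factors that keep the epithelial state, 7 were tested, with 3 higher and 1 lower in the knockout and 4 higher and 0 lower in the knockdown. GRHL1, a grainyhead factor, rose by 0.77 ± 0.18 and 1.22 ± 0.18, and KLF5 by 0.58 ± 0.18 and 0.75 ± 0.18. GRHL3 and OVOL2 were weak and under control in every depleted library. GRHL3 was at 1.90 and 1.43 CPM in control, 0.416 and 0.442 CPM after knockout, and 0.290 and 0.746 CPM in the knockdown. OVOL2 was at 1.70 and 0.984 CPM, 0.185 and 0.392 CPM, and 0.580 and 0.571 CPM.

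Epithelial genes that SNAI and ZEB proteins are known to repress were called lower more often than higher. Of 35, 26 were tested: 13 were lower and 1 higher in the knockout (median -0.78), and 10 lower and 5 higher in the knockdown (median -0.73). Of all genes, 12.1% were lower and 10.3% higher in the knockout, and 25.3% and 22.2% in the knockdown. CDH1, E-cadherin and the classical target, was at 3.24 and 2.85 CPM in control, 0.231 and 1.13 CPM after knockout, and 0.629 and 0.702 CPM in the knockdown. It was weakly expressed already in control and lower in every depleted library, by -2.17 ± 0.60 (adjusted p = 0.0118) and -2.18 ± 0.59 (adjusted p = 0.00459). KRT8, a simple epithelial keratin, was at 31.0 and 37.7 CPM in control, 6.38 and 6.43 CPM after knockout, and 7.01 and 6.76 CPM in the knockdown. The protease inhibitor SPINT2 fell by 1.37 ± 0.10 and 1.01 ± 0.10. ESRP2, an epithelial splicing factor, fell by 3.65 ± 0.46 in the knockout, and its knockdown value was -0.77 ± 0.37. The desmosomal gene PKP3, at 98 and 68 counts in control, had 0 counts in both knockout libraries and was at least 28.8-fold lower there (floor of 3 counts per library).

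The 5 epithelial genes that rose in the knockdown were DSP (0.73 ± 0.09), OCLN (1.14 ± 0.15), TJP1 (0.71 ± 0.13), LAMA3 (0.32 ± 0.10) and DSC2 (0.28 ± 0.09), genes of desmosomes, tight junctions and laminin. OCLN was at 13.4 and 11.3 CPM in control and 26.7 and 27.7 CPM in the knockdown. With the GC and length offset the knockdown counts of the list were 3 higher and 9 lower. Against the knockout, the knockdown had 10 of the list higher and 2 lower, beside 19.4% and 21.4% of all genes. The 8 markers of differentiated epithelium, CDH1 and KRT8 among them and KRT7 at 0 counts in all 6 libraries, summed to 126 to 145 CPM in control, 89.1 to 90.4 CPM after knockout and 63.4 to 72.8 CPM after knockdown. Most of each sum was the keratin KRT18. It was at 90.2 and 102 CPM in control, 82.1 and 82.3 CPM after knockout, and 63.0 and 54.8 CPM after knockdown. EPCAM, also among the markers, overlapped between control (13 and 41 counts) and knockdown (44 and 24), and had 8 and 8 counts after knockout. The part of these markers in the result was not tested.

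Genes that EMT is known to raise were also lower more often than higher. Of 32, 23 were tested: 7 were lower and 2 higher in the knockout (median -0.38), and 13 lower and 3 higher in the knockdown (median -0.75). The shares of all genes were 12.1% lower and 10.3% higher in the knockout, and 25.3% and 22.2% in the knockdown. CDH2, N-cadherin, was at 122 and 111 CPM in control and 153 and 156 CPM in the knockout, with 151 and 144 CPM in the knockdown. It rose by 0.41 ± 0.09 and 0.34 ± 0.09, and ITGAV, the integrin alpha V gene, by 0.52 ± 0.08 and 0.72 ± 0.08. The matrix genes FN1 (fibronectin) and SPARC were lower in both, FN1 by -0.71 ± 0.09 and -1.68 ± 0.09 and SPARC by -1.36 ± 0.14 and -0.92 ± 0.14. TNC, tenascin C, went from 9.43 and 7.43 CPM in control to 1.26 and 0.790 CPM in the knockdown. MSN, the membrane linker moesin, fell by 0.75 ± 0.08 in the knockdown.

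Among intermediate filaments and vimentin's partners, 24 of 25 were tested. In the knockout 10 were lower and 2 higher (median -0.24), and in the knockdown 15 lower and 4 higher (median -0.48). Over all genes, 12.1% were lower and 10.3% higher in the knockout, and 25.3% and 22.2% in the knockdown. The neurofilament gene NEFL was at 347 and 352 CPM in control, at 156 and 153 CPM after knockout, and at 56.6 and 53.3 CPM after knockdown, in order without overlap. NEFM fell by 2.02 ± 0.16 and 1.59 ± 0.16. CAPN2, a calpain subunit, fell by 0.27 ± 0.08 and 1.07 ± 0.08, and FLNA, the actin cross-linker filamin A, fell by 1.14 ± 0.08 in the knockdown. The plakin DST, which ties filaments to other structures, rose there by 1.01 ± 0.09. The plakin PLEC, plectin, was at 42.2 and 88.9 CPM in the 2 knockdown libraries against 32.9 and 34.1 CPM in control, so its rise of 0.97 ± 0.20 differed widely between replicates. Genes of chromosome 8 from 50 Mb, chromosome 6 from 70 Mb and chromosome 11 from 40 to 50 Mb were lower in the knockout as stretches. Without them the knockout counts were 8 lower and 2 higher of 22 here, and 12 lower and 1 higher of 25 among the epithelial genes. Among the genes that EMT raises they were 6 lower and 2 higher of 22 (median -0.22). Over all 16718 genes left, 1754 were lower and 1805 higher.

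**Figure D3:**
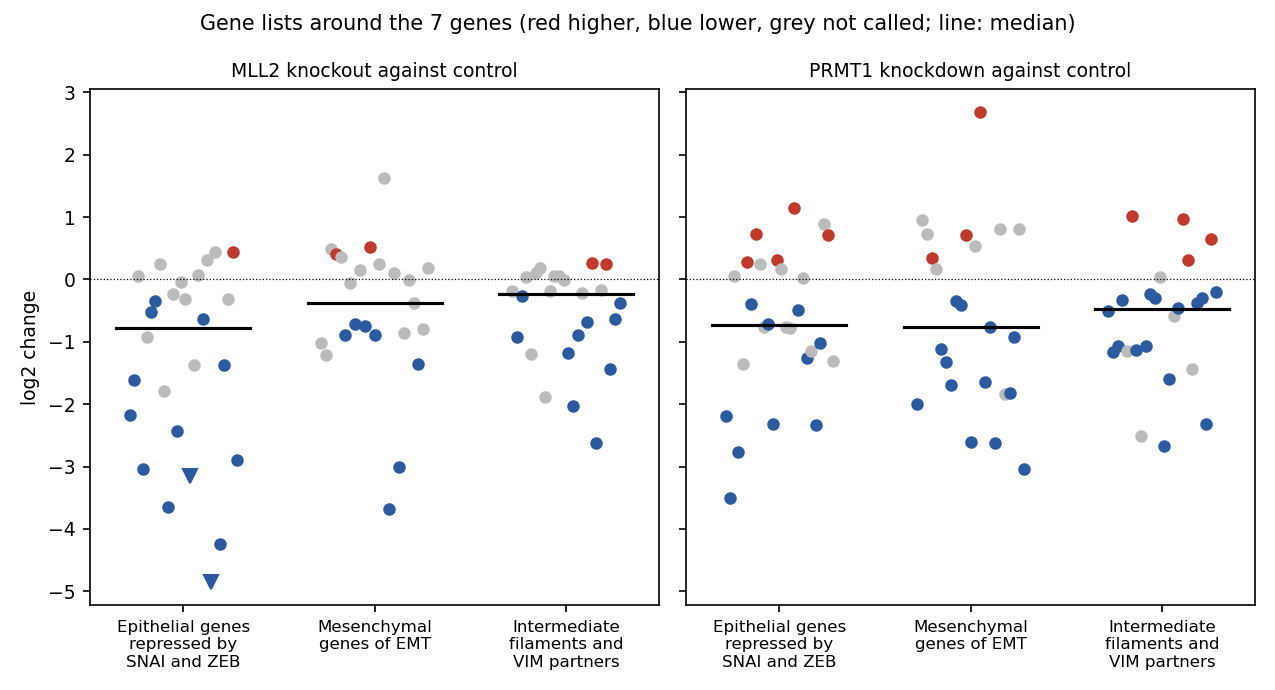
log2 change of each tested gene of 3 lists in the knockout (left) and the knockdown (right), red called higher, blue called lower and grey not called, with the list median as a line; triangles are genes with 0 counts in a group, drawn at their bound. Medians are -0.78, -0.38 and -0.24 in the knockout and -0.73, -0.75 and -0.48 in the knockdown.

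Of 24 cofactors of these repressors, 3 were higher and 3 lower in the knockout, and 5 higher and 6 lower in the knockdown. These counts are near the shares of all genes, 10.3% and 12.1% in the knockout and 22.2% and 25.3% in the knockdown. ID3, an inhibitor of basic helix-loop-helix factors, rose in both (0.68 ± 0.09 and 0.82 ± 0.09), and AJUBA, a LIM protein that binds SNAI proteins, was lower in both (-0.88 ± 0.15 and -2.14 ± 0.17). EP300, an acetyltransferase, rose by 1.39 ± 0.15 and SUZ12, a subunit of Polycomb repressive complex 2, by 0.82 ± 0.10 in the knockdown. The EP300 rise differed between the knockdown libraries, at 67.2 and 107.6 CPM against 33.1 and 33.6 CPM in control.

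Genes around the members on their chromosomes differed from member to member. Within 1 Mb of SNAI1, 26 genes were tested, and 10 were higher and 3 lower in the knockdown (median 0.30). The closest of those called were RNF114 (0.76 ± 0.09) and SPATA2 (1.54 ± 0.28), chosen after their values were seen. Around TWIST1, 0 of 3 genes were called in the knockdown, and around TWIST2 2 of 12 were higher and 6 lower (median -0.34). Within 1 Mb of ZEB1, 8 genes were tested, with a median of -0.27 in the knockout and -0.30 in the knockdown. In the knockdown 2 of the 8 were called higher, EPC1 (0.53 ± 0.13) and ARHGAP12 (0.27 ± 0.10). Another 2 were called lower, ZEB1-AS1 (-0.83 ± 0.26) and PPIAP31 (-1.68 ± 0.67), and 0 of the 8 were called in the knockout. EPC1 thus rose about as much as ZEB1 itself (0.48). Of 11 near VIM, 0 were higher and 4 lower in the knockdown (median -0.21). Near SNAI2, MCM4 changed by -0.07 and UBE2V2 by 0.30 in the knockdown, and 2 weakly expressed noncoding genes were lower, so that the median of the 4 was -0.84. In the knockout 0 of these 4 were called (median -0.05). Over 10 Mb on each side of SNAI2, 44 genes with an average log2 CPM above 2 had a median of -0.01 in the knockdown and -0.28 in the knockout, where SNAI2 was at 0.07. This window runs into chromosome 8 from 50 Mb, a stretch that was lower in the knockout, and SNAI2 lies outside that stretch. The knockdown medians over the same distance were 0.03 around ZEB1 (47 genes), 0.01 around VIM (62) and 0.23 around ZEB2 (29). In the knockout they were -0.08, -0.14 and 0.15. ZEB2 had only 2 tested genes within 1 Mb. GTDC1, a glycosyltransferase domain gene, was at 0.61 ± 0.17 in the knockdown (adjusted p = 0.00525) and -0.21 ± 0.17 in the knockout.

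The other was ENSG00000279166 (chr2:144494265-144496878), an unverified transcript on ZEB2's own strand inside its span. It had 6 and 5 counts in control, 23 and 36 in the knockout and 47 and 71 in the knockdown. It was lowest in control and highest in the knockdown, in the same order as ZEB2, and rose by 2.35 ± 0.61 (adjusted p = 0.00849) and 3.28 ± 0.60 (adjusted p = 1.2e-04). Reads from ZEB2's unspliced RNA and from this gene cannot be told apart there.

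Antisense genes overlap the starts of ZEB1 and VIM on the opposite strand, and the counting was stranded. ZEB1-AS1 was at 7.14 and 8.22 CPM in control, 4.53 and 5.004 CPM after knockout, and 3.58 and 5.05 CPM in the knockdown. All 4 depleted libraries were under control, with changes of -0.69 ± 0.26 (adjusted p = 0.0579) and -0.83 ± 0.26 (adjusted p = 0.0111). VIM-AS1 was at 3.49 and 4.87 CPM in control, 2.27 and 2.80 CPM after knockout, and 4.21 and 4.70 CPM in the knockdown, and was called only against the knockout (0.82 ± 0.31, adjusted p = 0.0430).

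**Figure D4:**
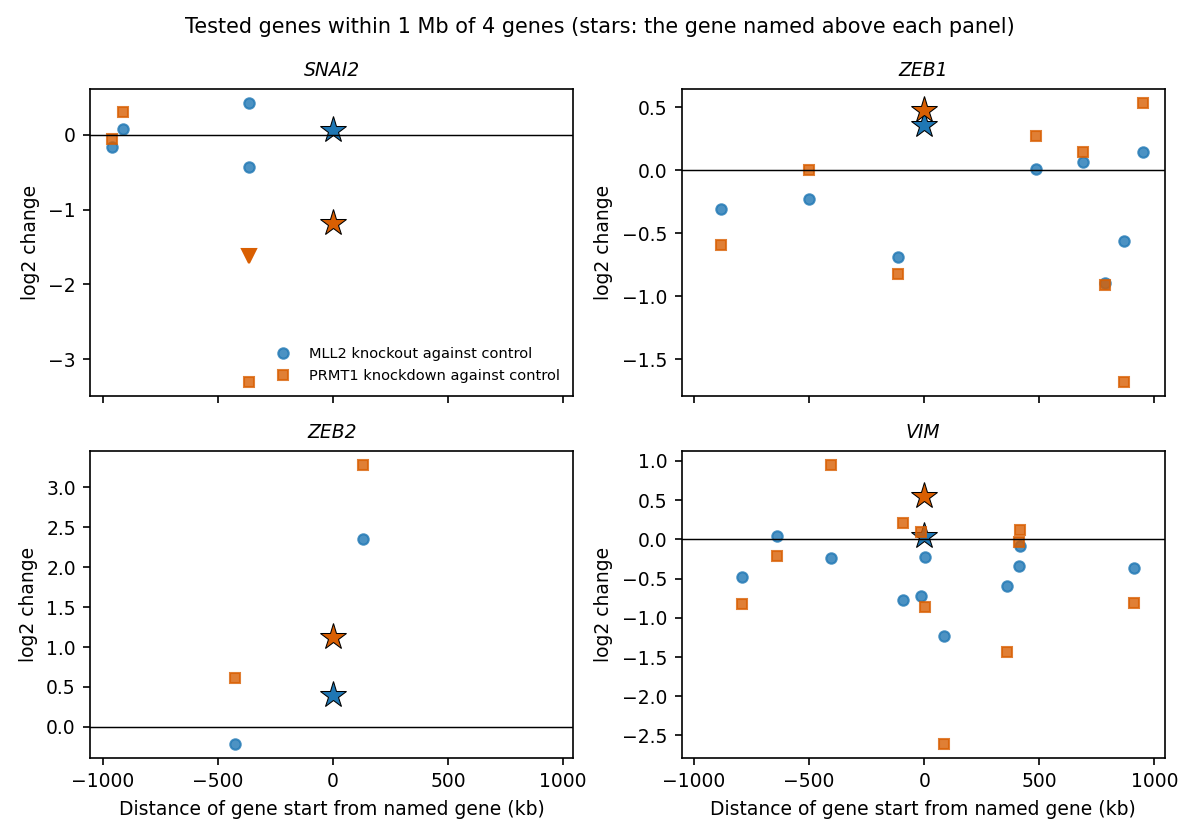
log2 change of tested genes within 1 Mb of SNAI2, ZEB1, ZEB2 and VIM against the distance of their starts in kb, with blue circles for the knockout, orange squares for the knockdown and stars for the named gene; the triangle is a gene with 0 counts in the knockdown, drawn at its bound. ZEB1 at 0.48 and VIM at 0.55 in the knockdown sit among neighbours with medians of -0.30 and -0.21. Of these neighbours, 2 were called higher and 2 lower near ZEB1, from EPC1 at 0.53 to PPIAP31 at -1.68, and 0 and 4 near VIM. Medians over 10 Mb on each side were 0.03 and 0.01.

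The 250 bases before the first RefSeq starts of ZEB1 and VIM are shown because both lie inside the span of the antisense gene just described (GRCh38.p14, plus strand). The E-box CAGGTG, the core of SNAI and ZEB binding, was searched on both strands, where it reads CACCTG on the other, and is in capitals. The ZEB1 window held 1, 57 bases before the start, and the VIM window 0. Of the 7 ZEB1 starts in the table, 1 other window held 2 E-boxes, also inside the span of ZEB1-AS1, and 5 held 0. Of 35116 windows of this length, 17.5% held one.
ZEB1 chr10:31318167-31318416 (+): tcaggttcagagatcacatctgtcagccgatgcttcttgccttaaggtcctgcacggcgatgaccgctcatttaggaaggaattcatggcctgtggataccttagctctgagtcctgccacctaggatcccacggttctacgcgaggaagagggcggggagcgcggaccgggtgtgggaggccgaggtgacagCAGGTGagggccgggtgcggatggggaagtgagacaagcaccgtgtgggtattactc
VIM chr10:17227991-17228240 (+): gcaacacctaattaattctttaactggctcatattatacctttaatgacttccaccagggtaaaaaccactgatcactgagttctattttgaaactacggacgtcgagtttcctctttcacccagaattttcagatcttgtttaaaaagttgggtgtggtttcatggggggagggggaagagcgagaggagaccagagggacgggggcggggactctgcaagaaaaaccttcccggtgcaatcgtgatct

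The genes most like each member called in any comparison were found by Pearson correlation of log2 CPM over the 6 libraries among 10768 protein-coding genes (10769 for SNAI1). For ZEB2 they were LINS1, TP53BP2 and OTUD7B (r of 0.9997, 0.999 and 0.999), and 75 genes were above 0.99. For SNAI2 they were DPYSL5, EIF2AK4 and PPP1R14C (r = 0.999 each), among 127. For VIM they were ASF1A, ANKRD28 and KCTD2 (r = 0.999 each), among 37. For ZEB1 they were OSBPL2, TFIP11 and PAFAH1B1 (r = 0.994, 0.992 and 0.991). For SNAI1 they were ST7L, NUP155 and NUDT3 (r = 0.993, 0.992 and 0.99). With 6 libraries in 3 groups, such values mostly describe the relative spacing of the 3 group means.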

How the data were processed

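RNA of 293T cells was sequenced in 6 libraries, 2 each of control, MLL2 knockout and PRMT1 knockdown. Per the labels' protocols, RNA was prepared with TRIzol and a stranded total RNA kit. Per the submitters' processing notes, the tools were FastQC 0.11.4, Trim Galore 0.6.10, STAR 2.7.5a, featureCounts 1.5.0-p1 and DESeq2 1.36.0, with build hg38. Per the file headers, the deposited values are raw counts per gene from featureCounts 2.0.1 with GENCODE 34, paired reads, a minimum mapping quality of 10 and the reverse strand setting.

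The counts were fitted with edgeR 4.0.16 (R 4.3.3, limma 3.58.1): filterByExpr, TMM scaling, the 3 groups together, a quasi-likelihood test per comparison and Benjamini-Hochberg adjustment over 17575 genes, called at 0.05. Alternatives were RLE scaling, DESeq2 1.42.0, other filters, the compared groups alone, a replicate block, an exon length offset and leaving out each library. An offset on GC content and length together (17350 genes), the values of the lists without single libraries or chromosome stretches, the 10 Mb surroundings and principal transcript lengths were added after seeing the data. Gene classes and GC content came from GENCODE 29. The scripts were tested on simulated data.

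The 7 genes and the 11 context lists (230 genes) were chosen with earlier results of these data known. Named are the 7 genes and, per list and comparison, up to 4 called genes with the smallest adjusted p. CDH1, CDH2, TJP1, LAMA3, PLEC and SNAI3 fall outside that rule and were chosen after their values were seen. KRT18 and EPCAM, named as members of a marker set, were also chosen after their values were seen. So were PAX8, PAX2, SIX2, GRHL3, OVOL2, EPC1 and PPIAP31.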

Additional observations from a re-analysis of the deposited data

How the results depend on the processing

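With 2 libraries a group, the fit has few degrees of freedom, and SNAI1 (8 to 42 counts) and TWIST2 (51 to 71 counts) were too weak to show moderate changes. Leaving out 1 library gave 1908 to 5492 genes called in the knockout (3941 with all libraries) and 0 to 2 of the 7 genes, with ZEB1 called only without control replicate 1 or a knockdown library. It gave 6416 to 8238 genes called in the knockdown and 3 to 4 of the 7. Values that changed sign were all uncalled. TWIST2 in the knockdown was at 0.24 with the length offset and 0.29 with the GC and length offset, and without single libraries ranged from -0.24 to 0.13. TWIST2 in the knockout ranged from -0.41 to 0.086 and between the depletions from -0.14 to 0.36, where leaving out knockdown replicate 1 gave -0.10. SNAI2 in the knockout was at -0.022 with the GC and length offset, and SNAI1 in the knockout ranged from -0.74 to 0.10. The cause was not tested. Either offset gave 6 of 7 genes called in the knockdown, adding SNAI1 and TWIST1, beside 48.0% and 49.4% of all genes. Scaling by relative log expression gave 2054 higher and 2044 lower genes in the knockout, and DESeq2 1809 and 1647.

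Replicate numbers are shared between groups, but replicate differences correlated by 0.0654 (control and knockout), 0.0439 (control and knockdown) and 0.197 (knockout and knockdown), so the numbers were not taken to pair libraries. With the replicate block 4512, 8710 and 7529 genes were called in the 3 comparisons. The block changed 1 call among the 7 genes, TWIST1 between the depletions (0.49, adjusted p = 0.0479).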

Other observations

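Genes that control the stability of SNAI, ZEB and TWIST proteins were higher more often than lower in the knockdown. Of 22, 11 were higher and 3 lower there (median 0.30), against 3 higher and 1 lower in the knockout. Over all genes, 22.2% were higher and 25.3% lower in the knockdown, and 10.3% and 12.1% in the knockout. GSK3B, the kinase that marks SNAI1 for destruction, rose by 0.95 ± 0.13 in the knockdown, and FBXW7, a subunit of a ubiquitin ligase, rose by 0.64 ± 0.10. With the GC and length offset the knockdown counts were 6 higher and 4 lower (median 0.04). Protein levels were not analysed here.

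Of 26 genes of signals that can start EMT, 9 were higher and 5 lower in the knockdown, and 3 higher and 5 lower in the knockout. The shares of all genes were 22.2% higher and 25.3% lower in the knockdown, and 10.3% and 12.1% in the knockout. SMAD7, an inhibitor of TGF-beta signalling that is also its target, rose in both (0.53 ± 0.11 and 1.57 ± 0.11). TGFBR1, a TGF-beta receptor, was lower in the knockdown (-0.85 ± 0.10), and EGFR was lower in the knockout (-1.21 ± 0.22). With the GC and length offset the knockdown counts were 6 higher and 7 lower. Of 10 tested genes of neural crest and early mesoderm, 2 were higher and 1 lower in the knockout (median -0.12). In the knockdown 2 were higher and 3 lower (median -0.54), beside the same shares of all genes. The homeobox gene MSX2 (0.97 ± 0.11 and 1.10 ± 0.11) and TFAP2A (0.95 ± 0.20 and 1.56 ± 0.19) rose in both depletions. MESP1, 1 of the 3 lower in the knockdown, was at -2.02 ± 0.21 there.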
